A study of Mus musculus with 8 samples.

Results

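The serpin family of the mouse comprised 61 protein-coding genes in the basic set of GENCODE M21, chosen by symbol (Serpin, a clade letter from a to i and a number) from 21938 protein-coding gene records. For these genes, accessible chromatin was read from the consensus regions of an ATAC-seq experiment, in which the Tn5 transposase inserts adapters into open chromatin. The regions came from medullary thymic epithelial cells (mTECs), which display tissue-restricted self-antigens to developing T cells in the thymus. The mTECs were sorted from thymi of wild-type mice (labelled wt) and made up 4 groups, Tspan8neg MHCIIlow, Tspan8pos MHCIIlow, Tspan8neg MHCIIhigh and Tspan8pos MHCIIhigh, with 2 biological replicates in each and 8 samples in all. Tspan8 is an example of a tissue-restricted antigen, and MHC class II is high on mature mTECs and low on the earliest and latest stages. No treatment is labelled. The groups are not compared here, because the names of the count columns match no sample label. Each region belongs to the merged set of all samples, so it can rest on any of the libraries, and nothing about a single group follows from it.

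Serpins are a family of proteins that share a fold with an exposed reactive centre loop. Most of them inhibit proteases by acting as a suicide substrate: the protease cuts the loop, the serpin changes its shape and the enzyme is trapped. Clade A holds secreted plasma inhibitors made largely by the liver, such as alpha-1-antitrypsin (the Serpina1 genes), and hormone carriers. Clade B holds mostly intracellular inhibitors of epithelia and leukocytes. Other clades hold regulators of coagulation, fibrinolysis and complement, and the collagen chaperone Serpinh1. Many mouse serpins lie in tandem arrays that arose by duplication, and the liver proteins among them are typical of the peripheral self that mTECs represent.

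The set of 57124 regions held 50 that were given to serpin genes, together 13494 bases. A region was given to the gene with the nearest transcript start among the protein-coding genes whose body plus 5 kb it overlapped. It was called a promoter region where its centre lay in the window that runs from 1000 bases before a transcript start to 100 bases after it. Of the 61 genes, 11 had a promoter region (18.0%, exact 95% interval 9.36 to 30.0), whereas 48.6% of all protein-coding genes had one. Any assigned region was found at 26 serpin genes (42.6%, interval 30.0 to 55.9), against 68.5% of all protein-coding genes. The intervals cover counting error only, since genes do not stand in for biological replicates. In the plot of regions by distance, promoter regions sat at genes of clades A, B, E, H and I.

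**Figure D1:**
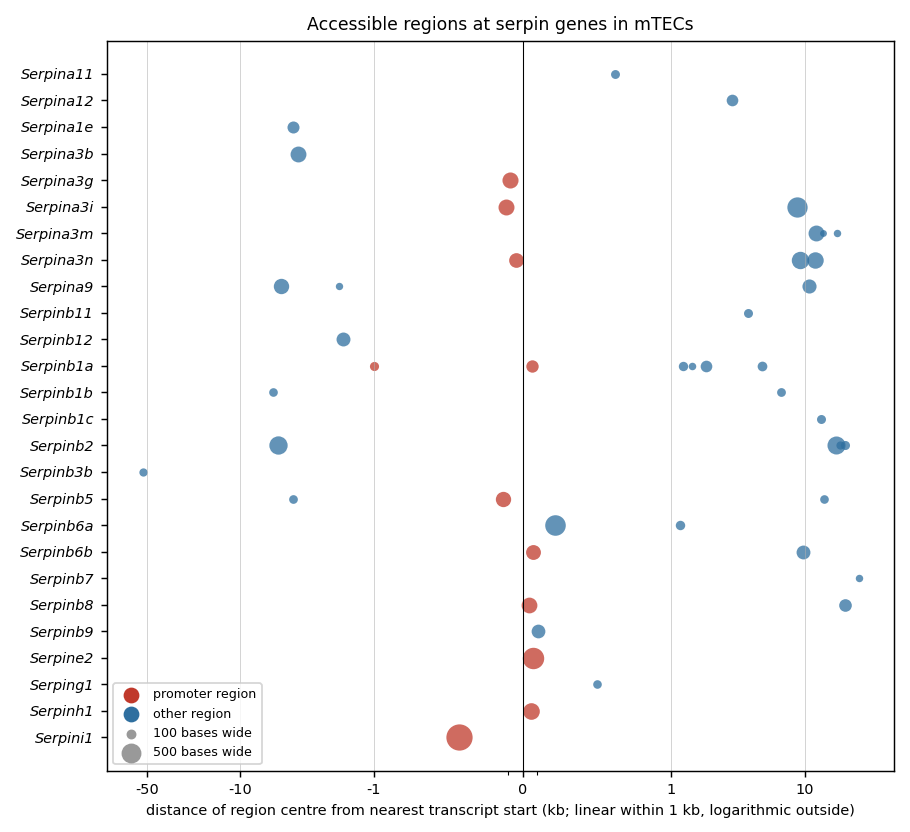
Each row is a serpin gene with a region (1 gene is left out) and each disc a region, placed by the signed distance of its centre from the nearest transcript start in kb (negative, upstream; the axis is linear within 1 kb and logarithmic outside). Red discs are promoter regions, blue discs are other regions and disc area scales with width; the 1057-base region of Serpini1 is shared with Pdcd10, and the region of Serpinb3b lies 53.7 kb upstream of a start.

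The sequences below carry the patterns that the family shows, and all were read from GRCm38.p6, the assembly behind mm10, from 5′ to 3′. An intronic element of the Serpinb1 genes was accessible at each of its 4 copies, and in the alignment below capitals mark the bases that were identical in all 4.
Serpinb1a, chr13:32846327-32846437, minus strand: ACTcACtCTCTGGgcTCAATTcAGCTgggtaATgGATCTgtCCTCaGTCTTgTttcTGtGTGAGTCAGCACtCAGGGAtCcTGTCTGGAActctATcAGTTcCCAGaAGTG
Serpinb1-ps1, chr13:32860955-32861073, minus strand: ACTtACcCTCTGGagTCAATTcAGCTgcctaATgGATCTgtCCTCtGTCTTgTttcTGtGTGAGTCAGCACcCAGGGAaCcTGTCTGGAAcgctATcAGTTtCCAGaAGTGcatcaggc
Serpinb1c, chr13:32884891-32885003, minus strand: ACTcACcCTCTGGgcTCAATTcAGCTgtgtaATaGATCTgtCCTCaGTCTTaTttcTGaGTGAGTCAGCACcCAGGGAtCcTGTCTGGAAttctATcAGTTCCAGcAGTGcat
Serpinb1b, chr13:33090689-33090807, plus strand: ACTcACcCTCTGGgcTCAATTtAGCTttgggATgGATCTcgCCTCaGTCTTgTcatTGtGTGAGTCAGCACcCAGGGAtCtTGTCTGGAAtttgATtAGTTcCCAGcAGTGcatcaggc

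An element downstream of Serpina3n recurs through the Serpina3 array and overlapped a called region at some copies and not at others. The middle of the element is shown for 3 copies that overlapped a region (Serpina3n, Serpina3i and Serpina3b) and for 2 that did not (Serpina3j and the copy before the pseudogene Serpina3h). Capitals mark bases that were identical in these copies and in 2 further copies not shown.
Serpina3n, chr12:104415760-104415909, plus strand: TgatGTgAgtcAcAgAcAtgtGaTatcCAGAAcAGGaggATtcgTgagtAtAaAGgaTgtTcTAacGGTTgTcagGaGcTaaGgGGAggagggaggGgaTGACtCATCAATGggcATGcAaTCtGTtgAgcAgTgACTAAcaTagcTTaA
Serpina3i, chr12:104271580-104271727, plus strand: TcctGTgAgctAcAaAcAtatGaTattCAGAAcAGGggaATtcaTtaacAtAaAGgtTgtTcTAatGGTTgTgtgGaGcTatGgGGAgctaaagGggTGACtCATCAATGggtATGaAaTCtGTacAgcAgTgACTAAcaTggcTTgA
Serpina3b, chr12:104124096-104124241, plus strand: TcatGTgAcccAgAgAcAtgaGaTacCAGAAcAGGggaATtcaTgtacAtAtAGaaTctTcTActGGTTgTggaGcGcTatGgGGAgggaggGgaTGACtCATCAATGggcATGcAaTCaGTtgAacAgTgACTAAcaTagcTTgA
Serpina3j, chr12:104322697-104322852, plus strand: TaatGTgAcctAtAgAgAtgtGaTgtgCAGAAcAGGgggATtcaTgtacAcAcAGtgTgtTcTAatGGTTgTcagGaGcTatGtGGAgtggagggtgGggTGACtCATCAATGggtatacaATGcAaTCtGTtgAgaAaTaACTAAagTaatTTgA
Serpina3h, chr12:104243217-104243364, plus strand: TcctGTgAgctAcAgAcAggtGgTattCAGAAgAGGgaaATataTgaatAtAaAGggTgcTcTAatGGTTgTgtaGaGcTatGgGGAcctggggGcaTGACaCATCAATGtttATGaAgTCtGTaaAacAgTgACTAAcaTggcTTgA

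The start of Serpina3g overlapped a region, as did those of Serpina3i and of the pseudogene Serpina3h, and the similar start of Serpina3f did not. The 150 bases upstream of each start are shown, with capitals at the bases identical in all 4.
Serpina3g, chr12:104236102-104236251, plus strand: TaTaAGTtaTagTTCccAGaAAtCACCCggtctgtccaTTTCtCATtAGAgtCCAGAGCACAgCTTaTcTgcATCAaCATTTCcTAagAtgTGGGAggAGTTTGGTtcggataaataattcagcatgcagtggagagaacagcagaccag
Serpina3i, chr12:104262972-104263121, plus strand: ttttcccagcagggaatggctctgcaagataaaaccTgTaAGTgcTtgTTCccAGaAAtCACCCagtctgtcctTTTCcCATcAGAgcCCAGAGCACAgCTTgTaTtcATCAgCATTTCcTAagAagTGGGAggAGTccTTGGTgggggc
Serpina3h, chr12:104247755-104247904, plus strand: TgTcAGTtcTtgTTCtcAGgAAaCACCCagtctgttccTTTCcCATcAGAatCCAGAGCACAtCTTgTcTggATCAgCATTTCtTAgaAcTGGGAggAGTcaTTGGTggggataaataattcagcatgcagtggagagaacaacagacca
Serpina3f, chr12:104214394-104214543, plus strand: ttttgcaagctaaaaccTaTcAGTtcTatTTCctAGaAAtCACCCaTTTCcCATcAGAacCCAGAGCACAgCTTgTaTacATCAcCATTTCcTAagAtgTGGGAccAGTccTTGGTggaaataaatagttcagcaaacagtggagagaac

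The start of Serpina3n overlapped a region and its close relative at Serpina3c did not. The 150 upstream bases of these starts are shown, with capitals at the bases identical in both.
Serpina3n, chr12:104406579-104406728, plus strand: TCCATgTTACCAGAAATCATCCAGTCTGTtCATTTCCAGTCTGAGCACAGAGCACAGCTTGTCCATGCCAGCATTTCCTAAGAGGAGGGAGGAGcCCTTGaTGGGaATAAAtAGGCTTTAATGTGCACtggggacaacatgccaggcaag
Serpina3c, chr12:104153871-104154020, minus strand: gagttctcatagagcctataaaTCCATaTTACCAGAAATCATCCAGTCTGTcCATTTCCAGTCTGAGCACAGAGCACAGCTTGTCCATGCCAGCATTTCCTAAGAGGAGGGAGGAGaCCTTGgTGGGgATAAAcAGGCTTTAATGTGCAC

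The promoter regions of Serpinb5 and Serpinb8 were the only promoter regions of serpins with a match to the AP-1 motif in their central 200 bases. For both, the stretch upstream of the start is shown, with capitals at matches to AP-1 (TGANTCA), to the ETS core (GGAAG) and to a KLF motif (GGGNGTGG) on either strand.
Serpinb5, chr1:106860973-106861172, plus strand: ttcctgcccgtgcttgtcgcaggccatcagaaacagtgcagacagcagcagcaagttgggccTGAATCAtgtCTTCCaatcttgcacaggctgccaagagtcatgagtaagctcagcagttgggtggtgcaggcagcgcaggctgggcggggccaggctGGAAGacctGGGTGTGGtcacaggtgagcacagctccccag
Serpinb8, chr1:107589859-107590005, plus strand: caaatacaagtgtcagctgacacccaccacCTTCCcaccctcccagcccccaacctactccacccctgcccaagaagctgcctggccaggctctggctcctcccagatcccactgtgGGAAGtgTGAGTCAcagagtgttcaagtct

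Of the serpins that control plasminogen activators and coagulation, Serpine2 and Serpini1 had a promoter region. Serpine2, protease nexin 1, an inhibitor of thrombin and urokinase, had a single region of 704 bases (chr1:79858276-79858979), the widest of the 50. Its GC content was 74.3%, against a median of 65.3% over all promoter regions given to genes, and 73.2% of those promoter regions were no wider. Serpini1, neuroserpin, an inhibitor of tissue plasminogen activator in neurons, had a promoter region of 1057 bases (chr3:75556593-75557649) that was shared with the divergent gene Pdcd10. Its centre lay 426 bases upstream of the start of Serpini1 and 265 bases upstream of that of Pdcd10, so it was given to Pdcd10, and no region was assigned to Serpini1 itself.

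Serpinb2, plasminogen activator inhibitor 2, and Serpina5, the protein C inhibitor, had no promoter region. Serpina5 had no region at all. Serpinb2 had 4 regions with 1243 bases. The nearest was centred 5.24 kb upstream of a start and was 515 bases wide (chr1:107505926-107506440). It was at least as wide as 89.9% of all regions outside promoters, whether or not they were given to a gene. The other 3, of 499, 103 and 126 bases, lay in introns of Serpinb2 from 17.2 to 19.9 kb downstream of its start. The region of 499 bases had its centre 336 bases upstream of the 5′ end of Serpinb10, which the annotation types as a polymorphic pseudogene and which overlaps Serpinb2. From position alone the 3 intronic regions cannot be told apart between these genes.

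Of 12 listed intracellular serpins of clade B known from epithelia and leukocytes, 3 had a promoter region (25%) and 8 any region (66.7%). Over all protein-coding genes these shares were 48.6% and 68.5%. Serpinb5 (maspin), a non-inhibitory serpin of basal epithelial cells, had a promoter region of 360 bases (chr1:106860860-106861219), centred 134 bases upstream of a start. Regions of 117 and 115 bases lay 4.01 kb upstream of an alternative start, in an intron, and 13.8 kb downstream of a start. Serpinb8, which is known to inhibit the convertase furin, had a promoter region of 382 bases (chr1:107589859-107590240) and a region of 245 bases across its last exon and UTR, 19.8 kb downstream. Serpinb1a, an inhibitor of neutrophil elastase and cathepsin G, had 6 regions, the most of any serpin. The region at its start was 235 bases wide (chr13:32851006-32851240), and 16.5% of all promoter regions given to genes were no wider. A further region of 128 bases was centred 998 bases upstream and so fell just inside the promoter window. The remaining 4 regions, from 87 to 208 bases, lay in introns 1.22 to 4.80 kb downstream.

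The other 5 genes of the list with an assigned region lacked a promoter region by the rule, but the distance was short for a part of them. Serpinb9, which inhibits granzyme B, had a region of 290 bases (chr13:33004502-33004791) that contained a start and whose centre lay 105 bases downstream, just past the limit of 100. Serpinb6a, an inhibitor of cathepsin G, had a region of 649 bases (chr13:33935452-33936100) that also contained a start, with its centre 220 bases downstream. It also had a region of 137 bases 1.17 kb downstream. A further region of 847 bases (chr13:34002130-34002976) covered the 5′ end of the Serpinb6a record but was given to Ripk1. The region of 649 bases was at least as wide as 94.3% of all regions outside promoters by the rule and had a GC content of 65.3%. When a region had only to contain a start, Serpinb6a and Serpinb9 joined the 11 genes, giving 13 of 61 (21.3%), and the share of all genes became 56.4%. Serpinb7, Serpinb12 and Serpinb3b had a single region each of 85 to 298 bases, from 1.70 to 53.7 kb from a start. The region of Serpinb3b had 40.0% unique words and lay inside a long read-through record. Serpinb13, Serpinb3a, Serpinb3c and Serpinb3d had none.

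Outside that list, Serpinb6b, a paralogue of Serpinb6a, had a promoter region of 339 bases (chr13:32965402-32965740) across its first exon and a region of 295 bases across a later exon, 9.68 kb downstream. Serpinb11 had a single region of 124 bases, 3.72 kb downstream of its start. The Serpinb1 paralogues Serpinb1b and Serpinb1c had 2 regions and 1 region of 115 to 124 bases and no promoter region. In the comprehensive annotation, which holds more transcript starts, Serpinb1b and Serpinb6a gained a promoter region.

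Of 12 listed plasma inhibitors of the liver, 1 had a promoter region (all genes, 48.6%) and 3 had any region (all genes, 68.5%). The gene with a promoter region was Serpina3n, an acute phase protein that inhibits granzyme B and other proteases. Its region was 332 bases wide (chr12:104406517-104406848), centred 47 bases upstream of the start, and 2 regions of 465 and 415 bases lay 9.11 and 11.8 kb downstream. Serping1, the C1 inhibitor that controls complement and contact activation, had a region of 114 bases in an intron, 501 bases downstream of a start. Serpina1e, an alpha-1-antitrypsin gene, had a region of 222 bases, 4.04 kb upstream of a start. Antithrombin (Serpinc1), heparin cofactor 2 (Serpind1), alpha-2-antiplasmin (Serpinf2), Serpina10, Serpina3k and the alpha-1-antitrypsin genes Serpina1a, Serpina1b, Serpina1c and Serpina1d had none.

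Of 4 hormone carriers and non-inhibitory serpins, 1 had a promoter region (all genes, 48.6%). Serpinh1, also called Hsp47, is a chaperone of procollagen in the endoplasmic reticulum. Its only region was 425 bases wide (chr7:99352968-99353392), across the first exon, with the centre 59 bases downstream of a start and a GC content of 65.2%. It was the only promoter region of the family with matches to ETS, KLF and heat shock motifs together in the central 200 bases. Over whole regions, those of Serpine2, Serpinb5 and Serpini1 held the same motifs together, so the combination is not particular to Serpinh1. The carriers of glucocorticoids (Serpina6) and of thyroxine (Serpina7) and Serpinf1, pigment epithelium derived factor, had no region.

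Among the other clade A genes, Serpina3g, an inhibitor of lysosomal cathepsins that is known from lymphocytes, had a single region of 396 bases (chr12:104235969-104236364) at its start. Serpina3i had a promoter region of 391 bases (chr12:104262814-104263204) and a region of 630 bases 8.76 kb downstream of its start. The latter was at least as wide as 93.7% of all regions outside promoters. Only 70.8% of the words in that wide region occurred once in the chromosomes. Serpina9, known from germinal centre B cells, had 3 regions of 83 to 363 bases from 4.97 kb upstream to 10.8 kb downstream of its start. Serpina3m had 3 regions of 72 to 388 bases, 12.1 to 17.4 kb downstream of its starts. Serpina11, Serpina12 and Serpina3b had a single region each, of 122, 208 and 387 bases, at 0.623 and 2.83 kb downstream and 3.72 kb upstream of a start. The region of Serpina11 was the nearest to a start of these 3.

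In all, 34 serpin genes had neither a promoter region nor an assigned region. Besides those named above they were Serpina16, Serpina1f, Serpina3a, Serpina3c, Serpina3f and Serpina3j of clade A. In clade B they were Serpinb9b, Serpinb9c, Serpinb9d, Serpinb9e, Serpinb9f, Serpinb9g, Serpinb6c, Serpinb6d and Serpinb6e. Serpine3 and Serpini2 completed the list.

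By clade, promoter regions were found at 3 of 24 genes of clade A (12.5%, interval 2.66 to 32.4) and 4 of 26 of clade B (15.4%, interval 4.36 to 34.9). Clades H and I had 1 of 1 and 1 of 2, and clades C, D, F and G had 0 of 5 together. Any region was assigned to 9 genes of clade A (37.5%) and 13 of clade B (50%). The intervals of clades A and B overlapped widely. Over all protein-coding genes, 48.6% had a promoter region and 68.5% any region. Within clade A, the promoter regions were at 3 of 10 Serpina3 genes and 0 of 6 Serpina1 genes. Within clade B, they were at 1 of 3 Serpinb1, 1 of 5 Serpinb6, 0 of 4 Serpinb3 and 0 of 7 Serpinb9 genes. For 0 of 7 genes the exact interval reached 41.0%, and for 0 of 6 genes it reached 45.9%.

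Most serpins lie in 3 clusters, defined as runs of at least 3 members with gaps under 500 kb, and 49 of the 61 genes belonged to them. A promoter region was found at 7 of these 49 genes (14.3%, interval 5.94 to 27.2) and at 4 of the 12 genes outside (33.3%, interval 9.93 to 65.1). The intervals overlapped. Any region was assigned to 22 genes in clusters (44.9%) and to 4 outside (33.3%), the opposite order. The shares over all protein-coding genes were 48.6% for a promoter region and 68.5% for any region. Regions of any kind were as dense in the clusters as elsewhere or denser, with 2.37, 3.34 and 2.56 regions per 100 kb on chromosomes 1, 12 and 13, compared with 2.10 over all chromosomes.

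**Figure D2:**
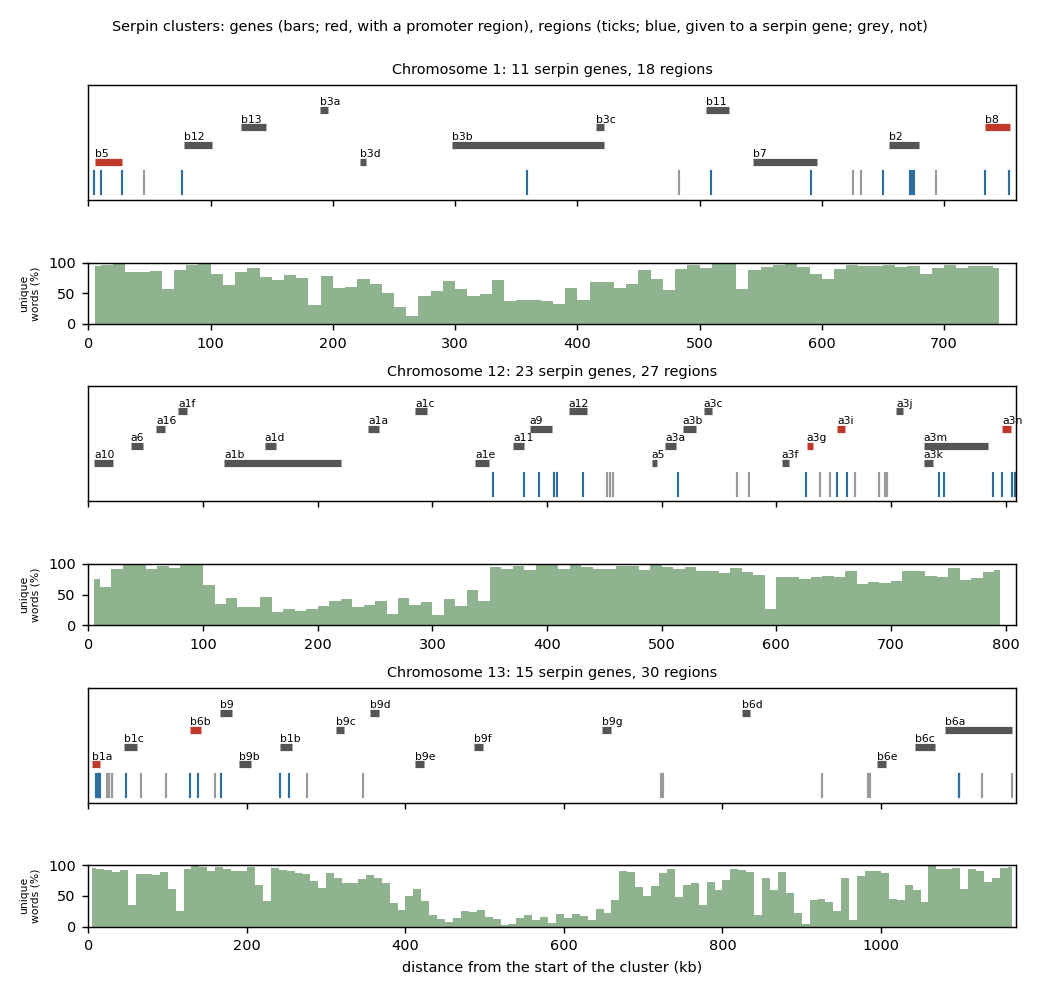
The 3 serpin clusters are drawn to scale in kb from their own start. Bars are genes, labelled without the word Serpin and red where a promoter region was found, ticks are regions (blue, given to a serpin gene; grey, given to another gene or to none), and the green area is the percent of 31-base words that occur once, in bins of 10 kb; the first region on chromosome 12 lies 353.1 kb into the cluster.

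Within the clusters the regions were unevenly placed. The cluster on chromosome 12 held 23 genes of clade A in 809.5 kb, and its 27 regions all lay in the part from the upstream flank of Serpina1e to Serpina3n, at 5.92 per 100 kb. The first 353.1 kb held 9 genes, Serpina10, Serpina6, Serpina16, Serpina1f and the 5 genes Serpina1a to Serpina1e, and no region. The empty stretch had unlike sequence at its ends. Up to the first of Serpina1a to Serpina1e, over 118.4 kb, 84.7% of words occurred once, and from there to the first region 35.0% did. The authors discarded multimapping reads, so that accessible sites in the copied part could have gone uncalled. In that part absence of signal and absence of unique sequence cannot be told apart, whereas at Serpina10, Serpina6, Serpina16 and Serpina1f all words within 500 bases of a start occurred once.

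The cluster on chromosome 1, with 11 genes of clade B in 759.3 kb, had 18 regions and a longest gap of 281.8 kb between regions. This gap held the bodies of Serpinb12, Serpinb13, Serpinb3a and Serpinb3d, and the region given to Serpinb12 lies just before it. Regions gathered at Serpinb5, at Serpinb2 and at Serpinb8. The cluster on chromosome 13, with 15 genes in 1171 kb, had 30 regions and a gap of 376.5 kb that held Serpinb9d, Serpinb9e, Serpinb9f and Serpinb9g. The shares of unique words at the starts of these 4 genes were 93.9%, 58.6%, 43.6% and 68.8%. At the proximal end of the same cluster, Serpinb1a and the pseudogene Serpinb1-ps1 had 10 regions between them, 6 of them given to Serpinb1a. In the clusters, unique words made up 74.5%, 70.7% and 60.8% of the spans on chromosomes 1, 12 and 13.

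The starts of serpin genes were poor in CpG. The observed to expected ratio of CpG within 500 bases of a start was under 0.4 for 57 of the 61 serpins (highest over the starts of a gene; median 0.165, compared with 0.606 over all genes). Promoters with few CpG are typical of tissue-restricted genes. Among the 57 serpins, 8 had a promoter region (14.0%, interval 6.26 to 25.8), close to the 11.3% of the 7881 protein-coding genes with such starts. Any region was assigned to 40.4% of them (interval 27.6 to 54.2) and to 31.8% of all genes with such starts. The low share of accessible serpin promoters against 48.6% of all genes therefore was not seen against genes of like CpG content. Of the 4 serpins with a ratio of 0.4 or more, Serpine2, Serpinh1 and Serpini1 had a promoter region. The remaining gene was Serpinb6a, with the highest ratio of the family (0.855) and the region just outside the window. In all protein-coding genes with such starts the share was 69.6%.

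**Figure D3:**
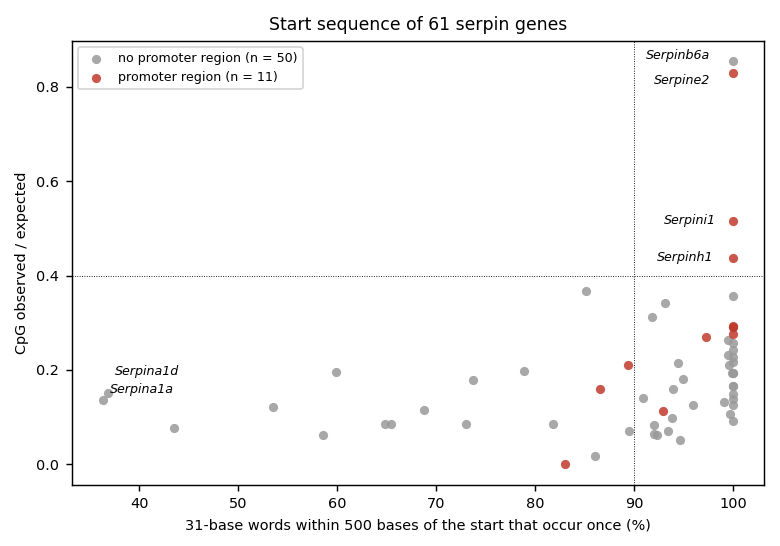
Each point is a serpin gene, with the percent of 31-base words within 500 bases of its start that occur once on the x axis and the CpG observed to expected ratio on the y axis, both the highest over the starts of the gene. Red points are the 11 genes with a promoter region; dotted lines mark 90% and 0.4, and the lowest unique shares belong to Serpina1a and Serpina1d.

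Sequence in several copies was examined in the same way. Of 42 serpins with at least 90% unique words at a start, 8 had a promoter region (19.0%, interval 8.60 to 34.1), and of the 19 others, 3 had one (15.8%, interval 3.38 to 39.6). In all protein-coding genes these shares were 54.7% and 16.2%. The intervals of the serpins overlapped. Among the serpins under 90%, the lowest shares were 36.4% at Serpina1a, 36.9% at Serpina1d and 43.6% at Serpinb9f. The 3 with a promoter region were Serpina3g, Serpina3i and Serpinb1a, with 86.6%, 83.0% and 89.4% unique words around the start, and the regions at these starts had 89.9%, 93.9% and 98.5% unique words themselves.

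**Figure D4:**
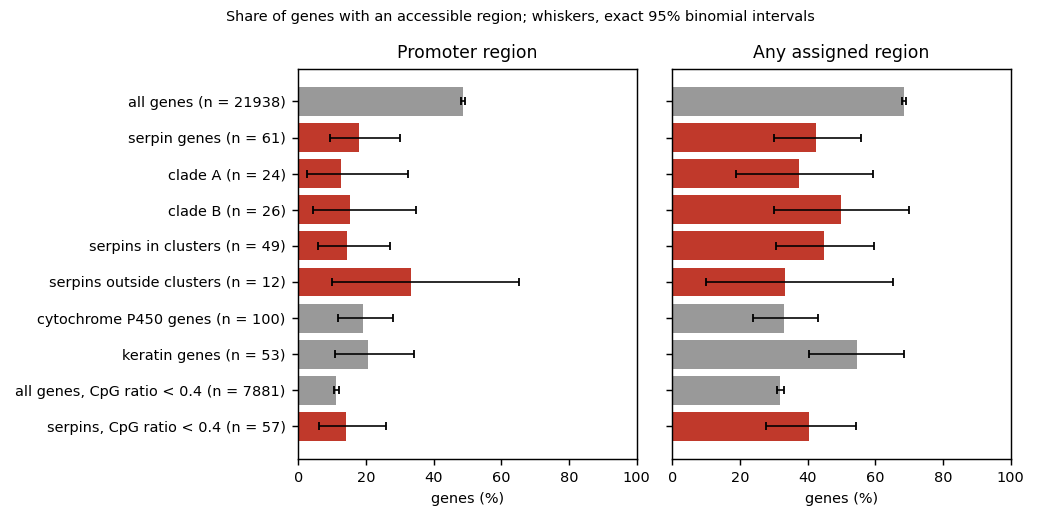
Bars give the percent of genes with a promoter region (left) and with any assigned region (right), with exact 95% binomial intervals as whiskers and the number of genes beside each label; red bars are serpins and grey bars are other genes. The serpin bar of 18.0% lies below the 48.6% of all genes and beside the 19.0% of cytochrome P450 and the 20.8% of keratin genes, while serpins with a CpG ratio under 0.4 lie near all genes of that kind.

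Other large families with tissue-restricted members gave shares of the same size. Of 100 cytochrome P450 genes, which are typical of liver, 19 had a promoter region (19.0%, interval 11.8 to 28.1), as did 11 of 53 keratin genes (20.8%, interval 10.8 to 34.1). Any region was assigned to 33.0% of the cytochrome P450 genes and 54.7% of the keratin genes, on either side of the 42.6% of serpins, and the intervals of the 3 families overlapped for both measures. No test between families was run.

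Proteases and partners of serpins were read from a list of 56 genes. Of these, 17 had a promoter region (30.4%, interval 18.8 to 44.1), compared with 48.6% of all protein-coding genes. Any region was assigned to 37 of them (66.1%), close to the 68.5% of all genes. Of 15 genes of coagulation and fibrinolysis, 6 had a promoter region, among them those of urokinase (Plau), its receptor (Plaur), tissue plasminogen activator (Plat) and Lrp1, a receptor that clears serpin and protease complexes. Cathepsins, the lysosomal proteases that several serpins inhibit, had 4 of 9, and epithelial membrane and secreted proteases 4 of 14, including furin. Proteases of neutrophils, mast cells and lymphocytes had 0 of 8 (interval up to 36.9%). The widest of these promoter regions was at Lrp1 (1156 bases) and the narrowest at the kallikrein Klk8 (88 bases).

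The labelled cell type was checked in the same regions. Of 12 mTEC genes, 9 had a promoter region (75%, interval 42.8 to 94.5), including Aire, Cd80, H2-Ab1, Epcam, Krt5 and Krt14. Ccl21a, Fezf2 and Relb lacked one. Over all protein-coding genes the share was 48.6%, which lies in that interval. A promoter region was also found at 3 of 4 genes of cortical thymic epithelium (75%), so these counts do not separate mTECs from cortical epithelium. The counts were 0 of 10 for thymocytes, 1 of 3 for endothelium, 0 of 4 for fibroblasts and 1 of 7 for hepatocytes. The hepatocyte gene was Apoa1, with a region of 85 bases. Whether other cells added to the regions at serpins was not tested.

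The tandem arrays allow near copies to be compared within the merged set of regions, although regions at different copies can rest on different libraries. In the Serpina3 array, the 250 bases upstream of each start were aligned with those of the starts that overlapped a region, which were Serpina3g, Serpina3i, Serpina3n and the transcribed pseudogene Serpina3h. The pseudogene had a region of 484 bases centred 73 bases upstream of its 5′ end. Each of these starts was 82.2% to 84.4% identical to the most similar of the others. Among the 7 genes whose starts did not overlap a region, Serpina3c was 93.9% identical to Serpina3n, with 81.4% unique words there compared with 78.6% at Serpina3n. The starts of Serpina3f were 86.4% identical to Serpina3i and 88.0% identical to Serpina3g, with 100% and 90.5% unique words. The second start of Serpina3m was 84.6% identical to Serpina3n with 65% unique words, and Serpina3b and Serpina3k reached 80.0% and 79.5%. Serpina3a and Serpina3j, at 71.1% to 74.3%, were the least similar. High identity of the upstream sequence to an accessible start was therefore found at starts with and without a region.

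**Figure D5:**
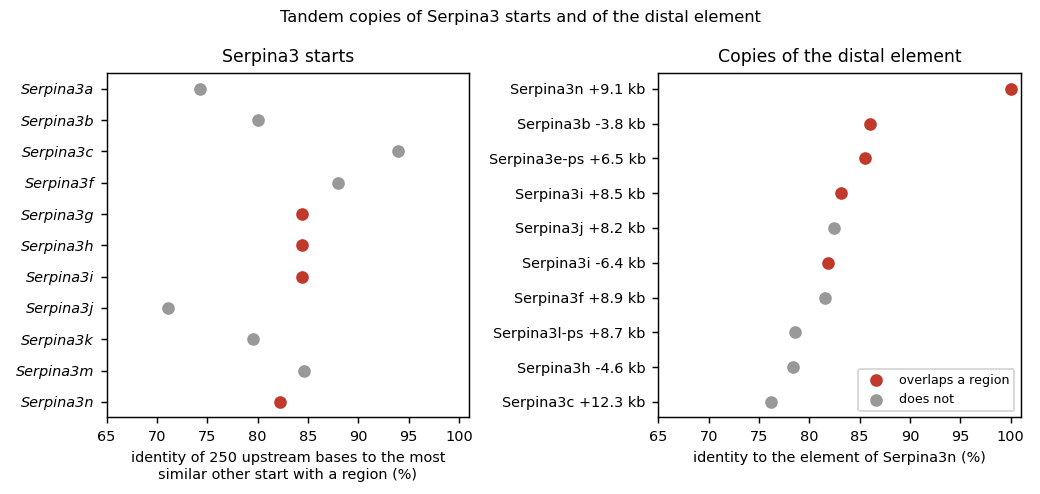
Left, identity in percent of the 250 bases upstream of each Serpina3 start to the most similar other start that overlaps a region (for genes with several starts, the highest); right, identity of the 10 copies of the distal element to that of Serpina3n, labelled by the nearest 5′ end of a serpin record and the distance in kb. Red points overlap a region and grey points do not; Serpina3c, at 93.9%, is the most similar start and is grey.

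The element 9.11 kb downstream of the start of Serpina3n, beyond the end of the gene, had 9 further copies in the array, 76.2% to 86.0% identical to it over 407 to 494 bases. A region overlapped 4 of the 9, which lay 3.83 kb upstream of Serpina3b, 6.47 kb downstream of the 5′ end of the pseudogene Serpina3e-ps, and 6.44 kb upstream and 8.52 kb downstream of the start of Serpina3i. The copies with a region were 81.9% to 86.0% identical to that of Serpina3n. The 5 copies without a region, near Serpina3c, Serpina3f, Serpina3h, Serpina3j and Serpina3l-ps, were 76.2% to 82.5% identical, so that the ranges overlapped. The unique words in the 9 copies ranged from 74.2% to 99.5%. Serpina3b has such a copy with a region and no region at its start, whereas Serpina3i and Serpina3n have a region at both. A match to the AP-1 motif was found in the 5 copies with a region, that of Serpina3n included, and in 3 of the 5 without, those near Serpina3f, Serpina3j and Serpina3l-ps. Copies of 1 ancestral element are not independent of each other.

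The element in the Serpinb1 genes lay 4.80 kb downstream of the start of Serpinb1a, 13.3 kb downstream of that of Serpinb1c and 6.62 kb downstream of that of Serpinb1b, in introns of these genes, and in the pseudogene Serpinb1-ps1. All 4 copies overlapped a region, of 145, 124, 119 and 311 bases in the same order. The copies were found from the region of Serpinb1b, so the copy there overlaps a region by choice. The copies were 79.8% to 92.1% identical by pairs, and 82 bases were identical in all 4 in copies of 111 to 119 bases. Each of them held an AP-1 match, within a run of capitals in the alignment above. Other regions of Serpinb1a differed from this. The region at its start has a copy at Serpinb1c, 80.3% identical and with 98.6% unique words, which overlapped no region. Its intronic regions of 208, 87 and 135 bases had 2 copies each, of which 0, 0 and 1 overlapped a region. The region of 128 bases upstream had 1 copy, which overlapped no region.

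Motif content was counted for 5 motifs in the 200 bases around the centre of each of the 50 serpin regions, on both strands. Matches of different motifs may overlap. The window was the same for all regions and runs past the 21 serpin regions narrower than 200 bases, so a match can lie outside the region. Among such matches were heat shock at the 126-base region of Serpinb2 and AP-1 at the 105-base region of Serpinb3b. The ETS core (GGAAG) was in 24 regions (48.0%, exact interval 33.7 to 62.6), compared with 55.0% of all 57124 regions, and the KLF motif (GGGNGTGG) in 4 (8%, interval 2.22 to 19.2), compared with 10.7%. ETS and KLF factors are discussed in the study as regulators in mTECs. AP-1 (TGANTCA) was in 13 regions (26%, interval 14.6 to 40.3), compared with 18.5%. These 13 included 3 of the copies of the Serpinb1 element and the copies of the Serpina3 distal element at Serpina3b and Serpina3n, which are not independent. The heat shock motif (GAANNTTC) was in 6 regions (12%, interval 4.53 to 24.3), compared with 4.19%, at Serpinb5, Serpinb2, Serpinb8, Serpina9, Serpina3n and Serpinh1. The core of the liver factor HNF1 (GTTAAT) was in 2 regions (4%), compared with 4.02%. All intervals but that of the heat shock motif contained the share of all regions. The heat shock share varied with the window. With the central 100 bases it was 2% compared with 1.96%, and over whole regions 18% (interval 8.58 to 31.4) compared with 5.57%.

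The promoter sequence that RefSeq gives for GRCm38.p6, from 250 bases before to 50 after the start, was matched for 52 of the 61 genes by symbol. An AP-1 match was in 10 of the 52, compared with 8.97% of 27025 symbols. It was in 2 of the 9 matched genes with a promoter region, Serpinb5 and Serpinb8, and in 8 of the 43 without one. The ETS core was in 35 of 52, compared with 73.9% of symbols, and the KLF motif in 6 of 52, compared with 19.7%. The heat shock motif was in 6 of 52, compared with 9.04%, and the HNF1 core in 11 of 52, compared with 8.24%. The HNF1 core was in 10 of the 43 matched genes without a promoter region and in 1 of the 9 with one. A match is a description of the sequence and does not show binding.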

How the data were processed

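ATAC-seq was performed by the authors on mTECs sorted into 4 groups by Tspan8 and MHC class II, with 2 biological replicates in each. Per the study's methods, the authors aligned reads to mm10 with Bowtie2, removed mitochondrial, multimapping and duplicate reads, called broad peaks with MACS2 and merged them with bedtools. Whether peaks were called per sample or pooled is not given in the sources used here. Per the file headers, counts were made with featureCounts 2.0.3. From the deposited table, the first base, last base and width in bases of each consensus region were used. Of the deposited columns, 8 columns of read counts have names that match no sample label, so they were not used in any step, and the depth of each sample and comparisons between groups are not analysed here. Merging means that a region can come from any sample, and since multimapping reads were dropped, fewer regions can be called in copied sequence.

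The members and the gene lists were chosen with earlier results of these data known. Regions were compared with GENCODE M21 (basic) and GRCm38.p6, and 0 chromosomes had a region past their end. Regions overlapping a gene body plus 5 kb were given to the nearest transcript start. Unique words are 31-base words within 500 bases of a start, or within the stretch named, that occur once in the chromosomes. The study's reads were paired and longer, so this share is not the share of sequence where reads map uniquely. Copies of member regions within the clusters were found with blastn 2.17.0 (e-value up to 1e-10, at least 70% of the region covered) and aligned with MAFFT 7.526. Starts were aligned globally with Biopython 1.88. Intervals are exact (Clopper-Pearson) 95% binomial intervals and cover counting error only. No test was run. Values are given for each gene with a promoter region, for the genes with the most or widest regions, and other genes are given by counts and ranges or by name. The values of 1 member and the sequence at another start are not reported here, and the member stays in the counts. The functions were tested on simulated data. Computations used scipy 1.17.1, numpy 2.4.6, pandas 2.3.3, numba 0.67.0 and matplotlib 3.10.9 under Python 3.11.15.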

Additional observations from a re-analysis of the deposited data

How the results depend on the processing

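Of 36 alternatives over 10 results, 32 left the value within the exact interval of a share or within 1.5 times of a count. The exceptions were the regions given to serpin genes, 29 in place of 50 without the regions under 200 bases, and motif shares in the central 100 bases, where the ETS core fell to 22.0%, the KLF motif to 2% and the heat shock motif to 2%; fewer bases were searched there, and 21 of the 50 regions are narrower than 200 bases. The exact intervals are wide, so a share that stays within them says little about stability. The share of serpin genes with a promoter region ranged from 14.0% to 24.6%. The lowest value came from genes with a CpG ratio under 0.4, where all such genes had a share of 11.3% in place of 48.6%. This alternative counts among the 32, although the contrast with all genes was not seen there. The highest value came from any overlap within 1000 bases of a start, which added Serpina11, Serpinb6a, Serpinb9 and Serping1 (all genes, 63.1%). The criterion of a start inside the region, the group of genes with a CpG ratio under 0.4 and the set without members with shared starts or read-through records (Serpina1b, Serpina3m and Serpinb3b) were added as alternatives after seeing the data, and the other alternatives were set with earlier results of these data known. No paired analysis was possible because read counts could be tied to no sample, and the other fits intended for the counts (DESeq2, size factors, no filter, the replicate block and leaving out replicates) were not run for the same reason. Depth per sample is not analysed here, so a gene without a region is a gene without a called peak and not a gene shown to be closed.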

Other observations

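Genes with serpin names or folds outside the symbol rule were read in the same way. Serpinb10 and Serpina3h, typed as pseudogenes in the annotation, had a region at the 5′ end, of 499 and 484 bases. The pseudogene Serpinb1-ps1 had 4 regions in its body plus 5 kb. Angiotensinogen (Agt), a non-inhibitory serpin by fold with another symbol, had a region of 153 bases 3.89 kb upstream of its 5′ end and none at its promoter. In the clusters, 5, 11 and 14 regions on chromosomes 1, 12 and 13 were given to no gene. The widest of them, on chromosome 13, was 932 bases wide (chr13:33762932-33763863) and 98.3% of its words occurred once. Regions in the windows of serpin genes that were given to other genes were those of Nqo2 (852 bases), Ripk1 (847 bases) and Pdcd10 (1057 bases), and a region of 92 bases near Serpina7. The region given to Ripk1 covered the 5′ end of the Serpinb6a record, and that given to Pdcd10 was the promoter region of Serpini1. These regions were chosen after their values were seen.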
